A study of Homo sapiens with 16 samples.

Results

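Open chromatin of soft-selected cells was compared with that of their ancestors, both cultured on soft gel. The comparison used the peak list of each population from ATAC-seq, in which a transposase cuts and tags accessible DNA, and was limited to chromosomes 1 to 22. Members were all regions obtained by merging peaks of both lists that overlapped by at least 1 bp. There were 148299 such regions, of which 79258 held a peak of both lists and are called shared. For scale, all 4 lists of the series merged into 161185 autosomal regions.

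The cells were MDA-MB-231, an established human breast cancer line of the triple-negative type, labelled wild type throughout. Ancestral cells had not been through selection, and selected cells had been kept on soft gel for 75 days with 20000 cells replated about weekly. All cells grew on polyacrylamide gel coated with type I collagen, soft gel having a stiffness of 1 kPa and stiff gel of 308 kPa. Nuclei were taken from 200000 cells and 50000 nuclei entered each library. Each of the groups had 4 samples of the 16 in the series, and the labels do not say whether these were separate cultures. The deposited data hold 1 pooled list per group, so no spread between samples was available and no difference below has a test. The lists of selected and ancestral cells on stiff gel served only to show the same contrast in other samples. Their label leaves undecided whether selected cells on stiff gel were soft-selected cells moved to stiff gel or cells selected on stiff gel, since selection on both gels is described.

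Adherent cells sense the stiffness of their support through integrins, focal adhesions and contractile actin. On stiff supports the coactivators YAP and TAZ enter the nucleus and bind DNA with TEAD factors, often at distal elements that also hold AP-1 sites. Open gene starts are shared by most cell types, while distal elements differ more between cell states.

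Start peaks of marker genes were read first. VIM, an intermediate filament gene of mesenchymal cells, had a start peak at 12.9 times the list's scale in ancestral and 11.5 times in selected cells. KRT8, one of the luminal breast markers, had one at 14.6 and 14.3 times the scale. Of epithelial genes 18 of 19 had a start peak in each list. Of EMT and mesenchymal genes 10 of 16 had one in ancestral and 15 in selected cells. Those at or above the scale numbered 8 in ancestral and 7 in selected cells, with summed scaled levels of 37.0 and 35.9. ESR1, the oestrogen receptor gene, had no start peak in either list. PGR, the progesterone receptor gene, had a weak one at 0.42 and 0.70 times the scale. ERBB2, the HER2 receptor gene, had one at 4.89 times the scale in ancestral and 5.94 times in selected cells. Of the markers of blood cells, 5 of 13 had a start peak in ancestral and 10 in selected cells, with summed scaled levels of 17.6 and 20.1. Start peaks of blood cell markers at or above the scale numbered 4 in each list. Of all 19126 protein-coding genes 13181 had a start peak in both lists. A start peak in the selected list alone was found for 6.4%, and in the ancestral list alone for 1.23%. PTPRC, the common leukocyte antigen gene, had none in either list, while CD3E, a T-cell receptor subunit gene, had one at 6.80 and 5.51 times the scale. The markers' part in the results was not tested.

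The lists differed in size and in pileup. The selected list held 128150 autosomal peaks over 152 Mb, and the ancestral list 107292 peaks over 116 Mb. Pileup, the height of stacked reads or fragments at a peak's summit, had a median of 51 in selected and 111 in ancestral cells. To compare them, each pileup was divided by the list's scale, its median over the regions present in all 4 lists, which was 93 in selected and 202 in ancestral cells. The log2 ratio of scaled pileups, selected over ancestral, is the difference in strength. A ratio from pooled cells cannot tell fewer cells with an open site from less opening per cell.

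At shared regions the median log2 ratio was 0.16, with an interquartile range of −0.18 to 0.63. In selected cells 10908 shared regions were at least 2-fold higher, 13.8% of 79258, and 1375 were at least 2-fold lower, 1.73%. This excess of higher regions lay among weak regions. By deciles of mean strength, the mean of both log2 scaled pileups, the median ratio went from 1.02 in the weakest decile to −0.14 in the eighth and was 0.00 in the strongest. The lowest listed pileup was 27 in selected and 31 in ancestral cells, so that a shared region with an ancestral pileup under 58.6 had to have a ratio above 0. There were 14092 such regions, and they held 8839 or 81.0% of those at least 2-fold higher. The split also depended on the scale. With the deposited fold enrichment, which divides by each list's background, the median of all shared regions was −0.70, with 1.68% of regions at least 2-fold higher and 27.4% lower.

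Among strong regions more were lower than higher. Strong regions, those whose mean strength was at or above the scale, numbered 35401 with a median ratio of −0.08. Of these, 349 were at least 2-fold higher (0.986%) and 863 at least 2-fold lower (2.44%) in selected cells. Lower regions were also narrower in selected cells. Where each list had 1 peak, strong lower regions had a median width of 817 bp in selected and 1134.5 bp in ancestral cells. Strong higher regions measured 2068.5 bp and 1348.5 bp.

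**Figure D1:**
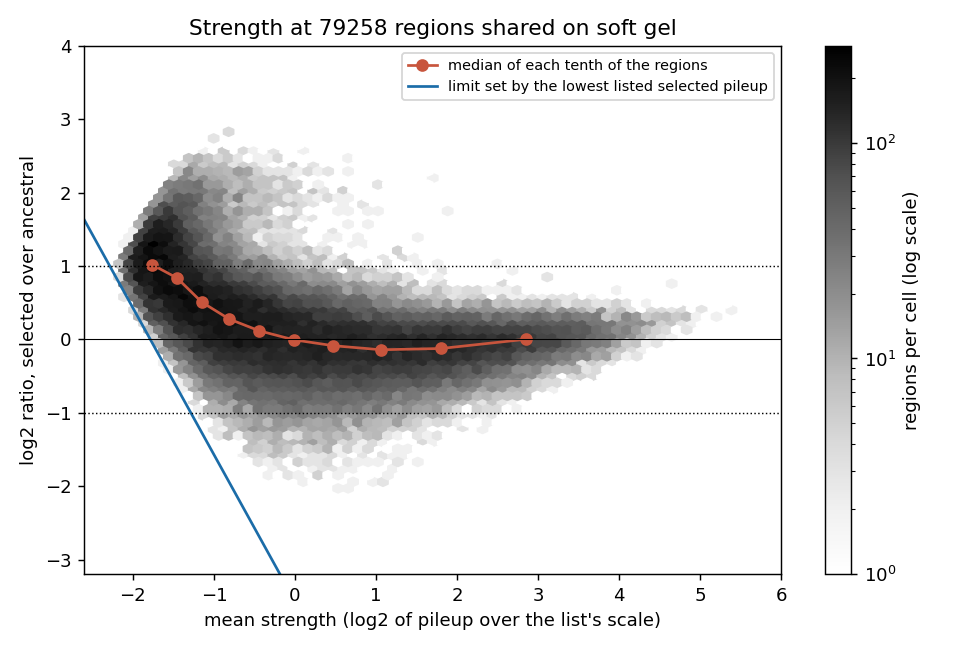
Log2 ratio of scaled pileup (selected over ancestral, soft gel) against mean strength for 79258 shared regions, shaded by the number of regions on a log scale. Red points are medians of each decile, from 1.02 to −0.14, the blue line is the limit set by the lowest listed selected pileup, and dotted lines mark 2-fold. Some regions gather near a ratio of 2.

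The strong regions with the lowest ratios were distal elements. The lowest of them lay 67.1 kb from NUAK1, which encodes a kinase related to AMPK (chr12:105995696-105996530, GRCh38). Its pileup was 46 in selected and 773 in ancestral cells, a log2 ratio of −2.95 with a 95% counting interval of −3.41 to −2.52. On stiff gel the pileups were 95 and 864, a log2 ratio of −1.80. Selected cells were thus the low ones on both gels.

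Inside PKNOX2, a homeobox transcription factor gene, a region (chr11:125300415-125301735) had pileups of 60 in selected and 913 in ancestral cells, a log2 ratio of −2.81. Inside GRIK4, a kainate receptor subunit gene, the values were 68 and 954, a ratio of −2.69. On stiff gel both regions were lower in selected cells too, with ratios of −1.84 and −1.47. A region 6.19 kb from FBLN2 (chr3:13644091-13645593), which encodes the matrix glycoprotein fibulin-2, had pileups of 61 and 640 on soft gel, a ratio of −2.27. It was as low on stiff gel, at 70 and 972, a ratio of −2.41.

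Among the remaining lower distal regions, one 8.94 kb from NGFR, the low-affinity neurotrophin receptor gene, had pileups of 58 in selected and 536 in ancestral cells, a ratio of −2.09. One inside SVIL, which encodes supervillin, an actin- and myosin-binding membrane protein, had 66 and 608, a ratio of −2.08. One 2.02 kb from FHDC1, a formin-family gene, had 63 and 599, a ratio of −2.13. The ratios on stiff gel were −0.98, −1.68 and −2.17. Regions near ZNF675, a zinc finger gene, and MED10, a Mediator subunit gene, had ratios of −2.40 and −2.25. All of these regions were low in selected cells on both gels.

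Of the 10 strong distal regions with the highest ratios, that of SLC9A3, a sodium-proton exchanger gene, lay 38.5 kb outside its gene and the others lay inside genes. In CACNA1H, a T-type calcium channel gene (chr16:1185339-1187791), the pileup was 454 in selected and 147 in ancestral cells, a log2 ratio of 2.75 with a counting interval of 2.47 to 3.02. On stiff gel the pileups were 431 and 194, a ratio of 2.54. In TRPM4, a calcium-activated cation channel gene (chr19:49165646-49168623), the pileups were 378 and 130, a ratio of 2.66. Selected cells were the high ones here, although their list has the lower scale.

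A region inside GOLGA3, a Golgi protein gene, had pileups of 246 in selected and 83 in ancestral cells, a ratio of 2.69. In GNAQ, a G-protein alpha subunit gene, they were 333 and 134, a ratio of 2.43. In PPARD, a nuclear receptor gene, they were 246 and 101, a ratio of 2.4. These were higher on stiff gel as well, with ratios of 1.91, 2.48 and 2.24. KCNIP3, which encodes a potassium channel-interacting protein, differed more on soft gel at 2.56 than on stiff gel at 0.81. The difference between gels has no test. TMEM132D, a transmembrane protein gene, MYT1, a zinc finger transcription factor gene, and NRAP, a muscle anchoring protein gene, had ratios of 2.54, 2.48 and 2.45. A weaker region inside MAD1L1, a spindle checkpoint gene (chr7:1823539-1828544), had the highest ratio of the regions with −log10 q of at least 10 in both lists, 2.94, with pileups of 251 and 71 on soft gel.

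**Figure D2:**
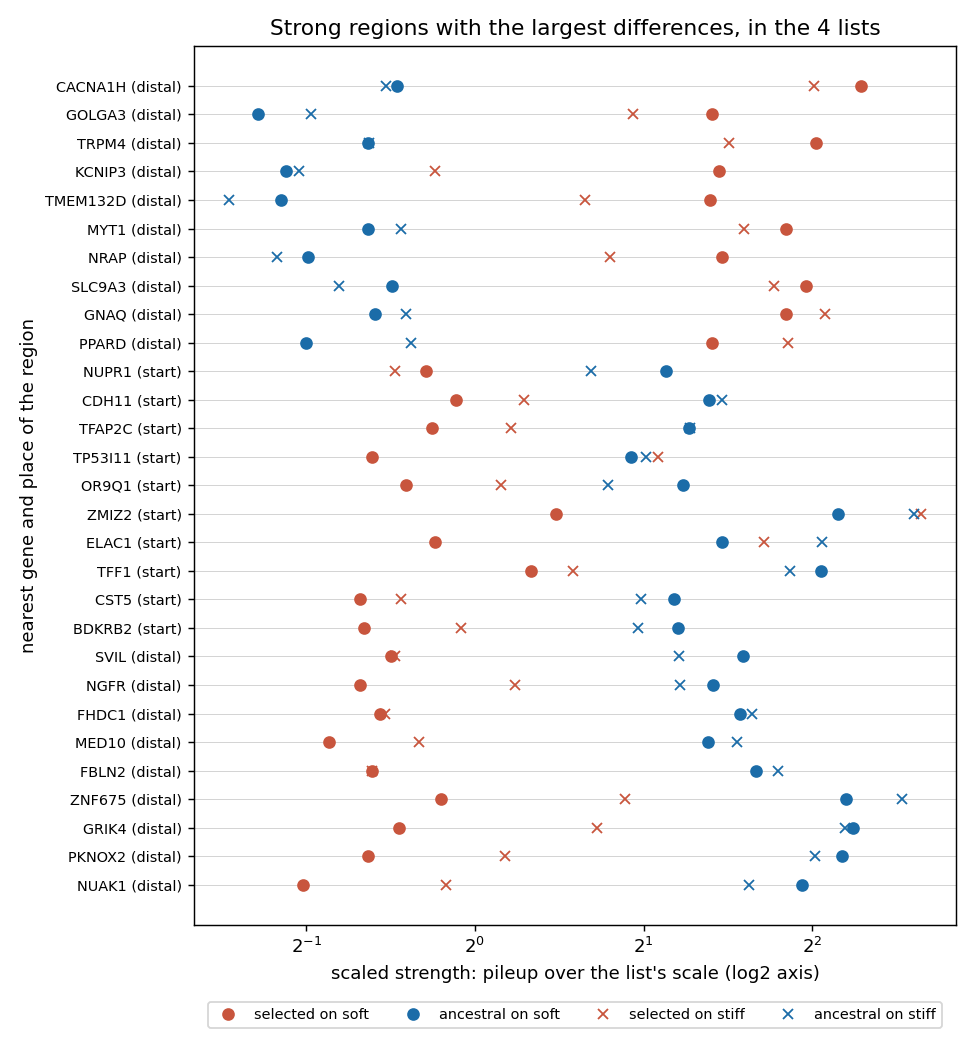
Scaled pileup (pileup over the list's scale, log2 axis) in all 4 lists for the strong regions with the largest differences on soft gel, labelled by nearest gene, with red for selected, blue for ancestral, circles for soft and crosses for stiff gel. In most rows the crosses separate in the same direction as the circles, and at ZMIZ2 and TP53I11 the crosses lie together.

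Gene starts differed least. Within 1 kb of a gene start, strong regions had a median ratio of −0.00 and 0.80% were at least 2-fold lower, beside −0.15 and 3.34% at 30 to 100 kb and −0.22 and 4.64% at 100 to 300 kb. The share of strong regions 2-fold higher was 0.30% at gene starts, 1.19% at 30 to 100 kb and 1.41% at 100 to 300 kb. Over all shared regions, weak ones included, the medians were 0.05 at gene starts and 0.27 at 1 to 3 kb. Regions at gene starts were also stronger, with a median ancestral pileup of 598, beside 162 at 30 to 100 kb and 161 at 100 to 300 kb. By mean strength, 324 of 7928 regions in the sixth decile and 17 of 7926 in the strongest were at least 2-fold lower. The part of strength in the difference by distance was not tested.

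Among starts lower in selected cells were genes of surface receptors, secreted proteins and transcription factors. The start of BDKRB2, the bradykinin B2 receptor gene, had a pileup of 59 in selected and 466 in ancestral cells, a ratio of −1.86, and 101 and 547 on stiff gel, a ratio of −1.05. CST5, which encodes the secreted protease inhibitor cystatin D, had 58 and 458, a ratio of −1.86. TFF1, a trefoil peptide gene known as an oestrogen target (chr21:42366388-42367557), had 117 and 836, a ratio of −1.72. CDH11, a mesenchymal cadherin gene (chr16:65120873-65124585), had 86 and 529, a ratio of −1.50. TFAP2C, an AP-2 transcription factor gene, had 78 and 486, a ratio of −1.52, and NUPR1, a stress-response regulator gene, had 76 and 443, a ratio of −1.42. The stiff-gel ratios of CST5, TFF1, CDH11, TFAP2C and NUPR1 were −1.42, −1.29, −1.17, −1.06 and −1.16, so these starts were lower in selected cells on both gels.

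The starts of 3 genes were low in selected cells on soft gel and close to ancestral on stiff gel. ZMIZ2, which encodes a coregulator of the PIAS-like family, had pileups of 130 in selected and 899 in ancestral cells on soft gel, a ratio of −1.67, and 668 and 1698 on stiff gel, a ratio of 0.04. ELAC1, a tRNA-processing enzyme gene, had 79 and 557 on soft gel, a ratio of −1.70, and −0.34 on stiff gel. TP53I11, a p53-inducible gene, had 61 and 383, a ratio of −1.53, and 0.07 on stiff gel. These were picked out after their stiff-gel values were seen.

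Starts that were higher in selected cells included F7, which encodes coagulation factor VII (chr13:113106763-113110257), with pileups of 342 in selected and 121 in ancestral cells, a ratio of 2.62, and 2.76 on stiff gel. RCAN2, which encodes a calcineurin inhibitor, had 252 and 158, a ratio of 1.79 (1.20 on stiff gel). SOX4, an SRY-box transcription factor gene, had 210 and 166, a ratio of 1.46 (0.76 on stiff gel). Weaker starts that were higher were those of IL34, a ligand of the CSF1 receptor, with 120 and 52 and a ratio of 2.33, KLK7, a secreted serine protease, with 138 and 60 and a ratio of 2.32, and GATA5, a zinc finger transcription factor, with 131 and 59 and a ratio of 2.27. Several other high starts lie in families of near-identical copies (CCL3L1, NPIPB5), where the counting is uncertain. Others were assigned by their summit to predicted loci without a gene name. At a region assigned in this way to LOC107987433 (chr5:1288471-1296299), the pileups were 1177 in selected and 443 in ancestral cells. This region is 7829 bp wide, and starts of other genes within it were not looked up. The ratio was 2.53 with a counting interval of 2.37 to 2.69, and 2.03 on stiff gel.

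The start sequences of 4 of these genes show how the windows differ in composition. Each runs from 250 bases before to 50 bases after the RefSeq start (GRCh38.p14). Capitals mark the motifs, searched on both strands. The AP-1 motif was spelled TGANTCA, the site of FOS and JUN dimers. The TEAD motif was GGAATG, bound by the partners of YAP. The ETS motif was CCGGAAG, and the motif of SP and KLF zinc finger factors was GGGCGGG. The NF-Y motif was CCAAT, and that of the core promoter box TATAAA. RCAN2 (chr6:46325602-46325901, minus strand) and SOX4 (chr6:21593501-21593800, plus strand) were higher in selected cells. BDKRB2 (chr14:96204589-96204888, plus strand) was lower on both gels, and ZMIZ2 (chr7:44748321-44748620, plus strand) on soft gel.
RCAN2: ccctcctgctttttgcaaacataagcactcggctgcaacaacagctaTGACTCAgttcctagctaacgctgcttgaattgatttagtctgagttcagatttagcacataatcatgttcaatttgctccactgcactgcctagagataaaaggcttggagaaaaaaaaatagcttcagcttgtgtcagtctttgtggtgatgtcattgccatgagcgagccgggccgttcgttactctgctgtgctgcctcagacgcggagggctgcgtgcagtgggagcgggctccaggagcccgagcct
SOX4: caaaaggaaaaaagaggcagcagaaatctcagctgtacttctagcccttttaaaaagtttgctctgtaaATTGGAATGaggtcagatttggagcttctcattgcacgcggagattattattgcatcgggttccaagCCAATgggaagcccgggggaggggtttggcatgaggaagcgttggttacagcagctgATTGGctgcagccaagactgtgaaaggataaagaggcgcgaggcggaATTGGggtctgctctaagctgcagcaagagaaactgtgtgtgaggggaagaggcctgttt
BDKRB2: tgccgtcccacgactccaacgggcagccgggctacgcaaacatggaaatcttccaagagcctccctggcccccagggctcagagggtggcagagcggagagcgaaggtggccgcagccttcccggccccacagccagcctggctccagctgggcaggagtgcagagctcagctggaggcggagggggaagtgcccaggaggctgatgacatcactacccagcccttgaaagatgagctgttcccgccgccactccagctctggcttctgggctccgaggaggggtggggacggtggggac
ZMIZ2: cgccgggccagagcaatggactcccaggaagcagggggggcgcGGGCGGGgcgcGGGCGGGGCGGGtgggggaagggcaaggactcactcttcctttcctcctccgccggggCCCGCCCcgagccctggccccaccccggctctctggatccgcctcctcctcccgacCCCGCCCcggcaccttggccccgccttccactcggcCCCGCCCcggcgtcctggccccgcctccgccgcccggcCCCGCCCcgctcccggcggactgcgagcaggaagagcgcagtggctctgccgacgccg

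RCAN2 holds 1 AP-1 match and SOX4 holds 1 TEAD and 4 NF-Y matches, of which 1 overlaps the TEAD match, with 50.3% and 49.3% G and C. BDKRB2 holds none of the motifs at 67.0% G and C, and ZMIZ2 holds 7 SP/KLF matches at 79.3%. Of all 15101 such windows, 5.91% held AP-1, 11.9% TEAD, 14.1% ETS, 43.6% SP/KLF, 35.7% NF-Y and 10.0% the TATA box. A match is a run of letters and not a measured binding site.

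Of these windows, 9546 lay in a shared region away from skipped peaks. Windows with an AP-1 match had a median ratio of 0.04 and those without of 0.03, and TEAD gave 0.04 and 0.02. SP/KLF gave −0.00 with and 0.06 without a match on soft gel, and 0.12 and 0.10 on stiff gel. The ratio followed base composition on soft gel. In 4 groups of like size by rising G and C content the median was 0.11, 0.07, 0.01 and −0.14 on soft gel, and 0.09, 0.13, 0.13 and 0.08 on stiff gel. At least 2-fold lower were 12 of 2505 windows in the group with the lowest content and 40 of 2285 (1.75%) in the highest. The part of base composition in the promoter differences was not tested.

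Beyond 300 kb from any gene start the ratio turned up, and 2 kinds of region lay behind the values there. In 53 windows of 1 Mb on 19 chromosomes, with at least 20 shared regions of which 90% were over 300 kb from a start, 4151 regions had a median ratio of 0.63 (interquartile range 0.44 to 0.81) on soft gel and 0.68 on stiff gel. The windows with the most regions were chromosome 19 at 26 to 27 Mb, chromosome 6 at 59 to 60 Mb and chromosome 5 at 48 to 49 Mb. How uniquely reads align there was not measured, and the part of alignment in these ratios was not tested. The median was above 0 in 52 of these windows. They held 57.8% of all shared regions over 300 kb from a start. The other 3028 such regions had a median of 0.12, and 5.03% of the strong ones among them were at least 2-fold lower. Outside the dense windows, strong regions beyond 300 kb thus had a share of lower ones near that at 100 to 300 kb.

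**Figure D3:**
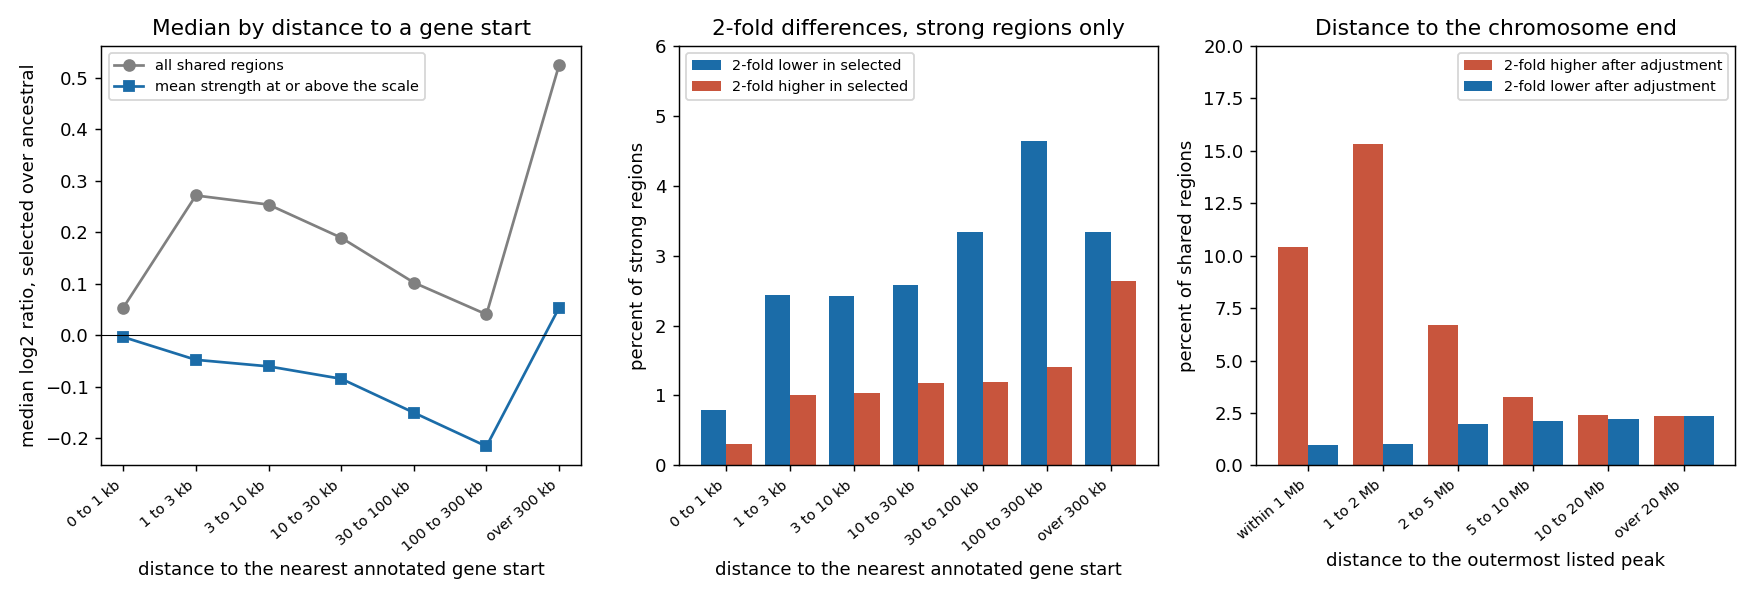
Left, median log2 ratio (selected over ancestral, soft gel) by distance to the nearest annotated gene start, for all shared regions (grey) and strong ones (blue). Middle, percent of strong regions at least 2-fold lower (blue) or higher (red), with 0.80% and 4.64% lower at 0 to 1 kb and 100 to 300 kb. Right, percent of shared regions 2-fold higher (red) or lower (blue) after adjustment for strength by distance to the chromosome end, highest at 15.3% at 1 to 2 Mb.

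Some regions gathered near a 4-fold higher level in selected cells, and their share was larger towards chromosome ends, although most of them lay elsewhere. Among 28194 regions of middle strength, counts per step of 0.25 in log2 ratio were 252 at 1.25 to 1.5, 224 at 1.5 to 1.75 and 255 at 1.75 to 2, a shallow dip. Of these, 814 had a ratio of 1.5 to 2.5, and 31.4% of the 814 lay within 5 Mb of a chromosome end. The share was 8.94% for those with a ratio below 1. A second set, taken from all strengths, is described from here. After subtraction of the running median at equal strength, 2582 of 78306 regions were at least 2-fold higher (3.3%) and 1736 at least 2-fold lower (2.22%). Of the higher ones 35% lay within 5 Mb of the outermost listed peak of a chromosome arm, against 12% of all regions and 8.12% of the lower ones, and 1167 of the higher ones lay over 20 Mb from it. The higher regions had a median unadjusted ratio of 1.85, and on stiff gel 2234 of the 2242 with both peaks were above 0. They were broad, with a median peak width of 2074.5 bp in selected and 844.5 bp in ancestral cells.

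By distance to the chromosome end, the share of regions higher after adjustment was 10.4% within 1 Mb, 15.3% at 1 to 2 Mb, 6.69% at 2 to 5 Mb and 2.34% beyond 20 Mb. The window with the most was on chromosome 14 at 105 to 106 Mb, where 24 of 63 regions were higher, followed by 22 of 92 at 157 to 158 Mb of chromosome 7. PTPRN2, a receptor-type phosphatase gene of secretory granules, held the most, 33 of 106 regions, with a median ratio of 1.31 on soft and 1.47 on stiff gel. CDH4, the R-cadherin gene, held 14 of 72 (median 1.30), FAM53A 9 of 16 (1.65), SLC9A3, a sodium-proton exchanger gene, 7 of 11 (1.56), and SBNO2, a helicase-family gene, 7 of 12 (1.35). These genes were chosen after their values were seen.

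The medians differed between chromosomes and within them. The median ratio of strong regions was −0.33 on chromosome 4, −0.32 on 21 and −0.23 on 18, and 0.13 on 14 and 0.08 on 19. On stiff gel it was −0.25 on chromosome 4, −0.12 on 21, −0.11 on 18, 0.14 on 14 and 0.15 on 19, so the values on 21 and 18 were smaller there. By windows of 10 Mb, chromosome 4 went from −0.52 at 20 to 30 Mb to −0.02 at 0 to 10 Mb. Chromosome 14 went from −0.01 at 50 to 60 Mb to 0.33 at 100 to 110 Mb. On chromosome 19 the window at 20 to 30 Mb stood at 0.54 and the others between 0.04 and 0.10. Of the 497 shared regions at 20 to 30 Mb, 161, 202 and 34 lay in the dense windows far from genes at 25 to 28 Mb. The other windows of 10 Mb above 0.5 were chromosome 5 at 40 to 50 Mb (0.58) and chromosome 1 at 120 to 130 Mb (0.56). Both also held dense windows. The number of DNA copies per chromosome was not measured here, so copy number and openness cannot be told apart.

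Some genes stood apart from the 5 Mb around them. RBL1, which encodes the retinoblastoma relative p107, had a median ratio of 2.14 over 6 regions, against 0.44 around it, and 2.02 on stiff gel. Its start had pileups of 356 in selected and 725 in ancestral cells, a ratio of 0.09, while the regions inside the gene at chr20:36999694-37002316 and chr20:37011474-37014130 had ratios of 2.54 and 2.36. A region outside the gene, at chr20:36975478-36979247, had a ratio of 2.07, and another inside it, at chr20:37071375-37072444, had 0.46. The higher ratios of RBL1 were thus away from its start and not confined to the gene. DOT1L, a histone H3 lysine methyltransferase gene, had a median of 1.81 over 5 regions against 0.43 around it, and PIP5K1C, a lipid kinase gene of focal adhesions, 1.84 over 5 against 0.39. After adjustment the gap of DOT1L was 0.87 in place of 1.38.

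Lower than their surroundings were NRIP1, a nuclear receptor corepressor gene, at −0.71 over 7 regions against 0.71 around it, and CST5 at −1.10 over 6 regions against 0.38. The surroundings of NRIP1 took in dense windows far from genes at 11 to 13 Mb of chromosome 21, with medians of 0.73 and 0.62. Those of CST5 took in such windows at 26 to 28 Mb of chromosome 20, with medians of 0.67 and 0.65. After adjustment for strength the gap of NRIP1 was −0.69 in place of −1.42. Its strong regions stood at −0.76, beside −0.56 for the 20 strong regions of chromosome 21 at 10 to 20 Mb, a window that contains the gene. The chemokine genes CCL28 and CX3CL1 were at −0.71 and −0.90 over 5 regions each, against 0.55 and 0.18. The surroundings of CCL28 took in the dense window at 47 to 48 Mb of chromosome 5, with a median of 0.72. After adjustment the gap of CCL28 was −0.78 in place of −1.25. On stiff gel the medians of NRIP1, CST5, CCL28 and CX3CL1 were −0.61, −0.96, −0.65 and −0.59. TP53I11 had a median of −0.95 over 7 regions on soft and 0.07 on stiff gel. Selected cells were thus lower at this gene on soft gel, and close to ancestral cells on stiff gel.

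Gene lists of the mechanical response were read as medians per gene after adjustment for strength. Over all 8585 genes with at least 3 shared regions, 4162 or 48.5% had an adjusted median below 0. Of 22 YAP/TAZ-TEAD targets, 19 were below 0, with a list median of −0.15, and 16 were below their own surroundings. Of their 273 regions 21 were at least 2-fold higher (7.69%, beside 14.2% for all genes) and 6 at least 2-fold lower (2.2%, beside 1.67%). Strong regions of the targets had a median of −0.21 on soft and −0.18 on stiff gel, against −0.07 for the strong regions of all genes on soft gel.

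Among the targets, CCN1, a matricellular protein gene, had regions at chr1:85611349-85613632 with pileups of 482 in selected and 1581 in ancestral cells, a ratio of −0.59, and at chr1:85606139-85608167 with 1638 and 3891, a ratio of −0.13. Its start falls in a stretch where the ancestral list skips peak numbers and was not compared. NUAK2, a kinase gene, had 6 regions, all with negative ratios, from −1.46 to −0.25. Its start had pileups of 318 and 852, a ratio of −0.30. TGFB2, a TGF-beta ligand gene, had a median of −0.36 over 15 regions, its start standing at 291 and 874. The highest unadjusted medians were those of AXL, a receptor tyrosine kinase gene, at 1.01, and FOXF2, a forkhead factor gene, at 0.73. After adjustment they were at −0.03 and 0.24.

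YAP1, which encodes YAP itself, had mostly negative ratios across the locus. Its start had pileups of 397 in selected and 1139 in ancestral cells, a ratio of −0.40, and 0.03 on stiff gel. Over its 13 regions the median was −0.44, from −0.79 to 0.33, against 0.16 around it, and −0.25 on stiff gel. Of the Hippo kinases and TEAD factors as a whole, 7 of 14 genes were below 0 after adjustment, near the share of all genes. LATS2, a Hippo kinase gene, had an unadjusted median of −0.23 and an adjusted one of −0.27. STK3 and TAOK1, kinases upstream of it, had unadjusted medians of 0.53 and 0.54 and adjusted ones of 0.15 and 0.13, and the strong regions of STK3 were at −0.15.

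Adhesion, actin and matrix genes were split. Of focal adhesion and integrin genes 14 of 24 were below 0 after adjustment, of matrix genes 14 of 23, and of SRF, MRTF and actin genes 10 of 19. Strong regions of these lists had medians of −0.17, −0.17 and −0.05. ITGA2, the collagen-binding integrin alpha-2 gene, had strong regions inside the gene at chr5:53069410-53070131 with pileups of 84 in selected and 429 in ancestral cells, a ratio of −1.23, and at chr5:53037110-53038678 with 74 and 304, a ratio of −0.92. Its start, with 312 and 690, had a ratio of −0.03. The difference in ITGA2 thus lay inside the gene and not at the start.

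Some members were higher, mostly through weak regions. ITGB4, the integrin beta-4 gene, had an unadjusted median of 1.29 and an adjusted one of 0.45, while its 1 strong region was at −0.20. SRC, a tyrosine kinase gene, had 1.03 and 0.18, and its strong regions were at −0.20. LAMB3, a laminin chain gene, had 1.12 and 0.30, and its strong regions were at −0.27. COL6A1, a collagen chain gene, had 1.01 and 0.30, with strong regions at 1.00, and ACTG1, the cytoplasmic gamma-actin gene, had 1.07 and 0.39 with no strong region. Lower were ITGB3, the integrin beta-3 gene, with an unadjusted −0.36 and an adjusted −0.26, and FBN1, the fibrillin-1 gene, with −0.33 and −0.34.

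Among EMT genes 7 of 13 were below 0 after adjustment, and among epithelial genes 8 of 14. CDH2, the N-cadherin gene, had an unadjusted median of −0.61 over 14 regions, from −1.44 to 0.82, against −0.10 around it and −0.55 on stiff gel. Its region inside the gene at chr18:28127621-28128677 had pileups of 50 in selected and 295 in ancestral cells. PRRX1, a transcription factor gene of the mesenchymal state, had an unadjusted median of 0.84 and an adjusted one of 0.66. SNAI1, another such gene, had 0.78 and 0.21, and its strong regions were at −0.24. CDH1, the E-cadherin gene, had −0.34 and −0.23. Of the mechanosensitive channel genes, 1 of 6 was below 0. PIEZO1, a stretch-activated cation channel gene, had an unadjusted median of 0.83 and an adjusted one of 0.56 over 7 regions, and its start had pileups of 321 and 474 with a ratio of 0.56. TRPV4, another cation channel gene, had 0.72 and 0.40.

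Hypoxia and glycolysis genes were below 0 in 12 of 17 cases, with an adjusted median of −0.56 for EGLN3, a prolyl hydroxylase gene, and 0.26 for NDRG1, a stress-induced gene. NDRG1 had an unadjusted median of 1.12, and its strong regions were at −0.34. Sterol synthesis genes were below 0 in 4 of 13, with 29 of 104 regions at least 2-fold higher (27.9%, beside 14.2% for all genes). Of the 29, 15 lay near INSIG1, a sterol-sensing protein gene on chromosome 7 with an unadjusted median of 0.95 against 0.89 around it. Ribosomal protein genes were below 0 in 1 of 8, and their strong regions had a median of 0.28 on soft and 0.19 on stiff gel. Neuron markers had 28 of 73 regions at least 2-fold higher (38.4%, beside 14.2% for all genes). Of the 28, 20 lay at RBFOX3, a neuronal splicing factor gene with 33 regions. Its unadjusted median was 1.19 against 0.31 around it, and its adjusted one was 0.35. Of these markers 4 of 8 were below 0 after adjustment, and their strong regions had a median of −0.21. Counts of this kind from lists of few genes have no test.

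The remaining lists gave 7 of 14 genes below 0 for matrix proteases, 5 of 9 for the AP-1 family, 5 of 13 for the nuclear envelope, 8 of 14 for TGF-beta signalling and 10 of 17 for receptor tyrosine kinases. Antioxidant genes gave 8 of 10, NF-kB and cytokine genes 8 of 12, interferon response genes 5 of 7 and cell cycle genes 4 of 9. Luminal, basal and blood cell markers gave 5 of 6, 6 of 9 and 4 of 5.

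**Figure D4:**
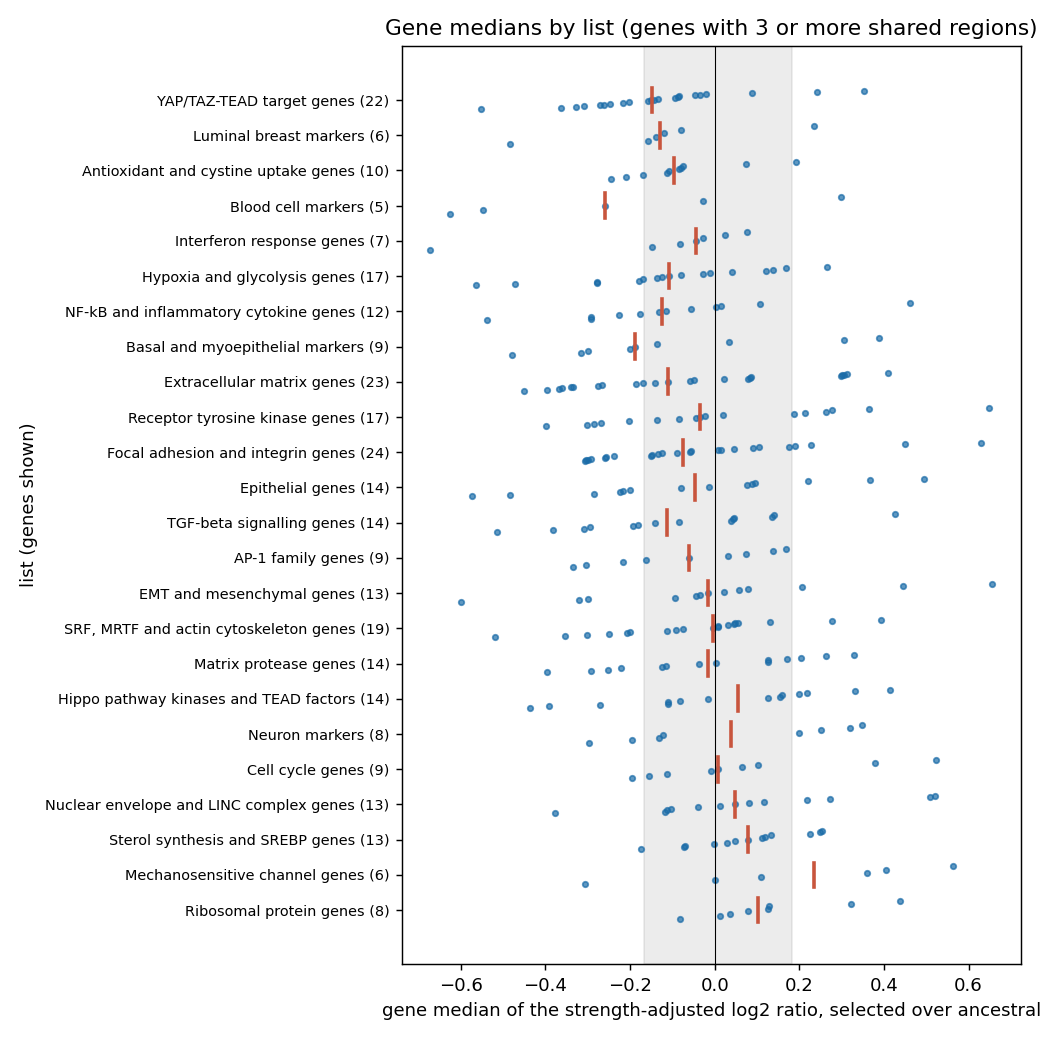
Adjusted median log2 ratio (selected over ancestral, soft gel) of each gene with 3 or more shared regions, by gene list, with 1 point per gene, red bars at list medians and the interquartile range of all genes shaded. The YAP/TAZ-TEAD targets (19 of 22 below 0) lie mostly left of 0, and mechanosensitive channel and ribosomal protein genes mostly right.

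The same contrast on stiff gel, measured in other samples, ran in the same direction at most regions. Across 34575 strong regions with all 4 peaks, Pearson's r between both contrasts was 0.745 and Spearman's coefficient 0.699, as a description over regions that share libraries within each contrast. Of strong regions at least 2-fold higher on soft gel, 315 of 317 were above 0 on stiff gel (median 1.51), and of those at least 2-fold lower 824 of 849 were below 0 (median −0.85). The standard deviation of the ratio over strong regions was 0.43 for the contrast on soft gel and 0.41 on stiff gel, against 0.28 between soft and stiff gel in ancestral cells. All 4 lists share the scaling regions.

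Peaks of 1 list without a partner in the other were counted last. Those that fell in a stretch where the other list skips a number in its peak names, 1410 of the selected and 4411 of the ancestral list, were set aside as undetermined. In selected cells 44811 of 126740 peaks had no ancestral partner, 35.4% (exact 95% interval 35.1 to 35.6), and in ancestral cells 18409 of 102881 had no selected partner, 17.9% (17.7 to 18.1). Of the ancestral-only peaks 9177 or 49.9% had a pileup that would have reached the selected list at equal scaled strength. Selected-only peaks were weak, with a median pileup of 36 against 81 for shared ones, and 5954 of them had a −log10 q of at least 10. Ancestral-only peaks had a median pileup of 58 against 155, and 11547 reached that q. Among peaks at that q the larger count was in ancestral cells. The same q does not stand for the same scaled strength, since the scale was 93 in selected and 202 in ancestral cells. The counts at that q thus do not compare peaks of equal strength, and each list's own lowest pileup bears on them too.

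The places of the list-only peaks differed from those of shared peaks. Of the selected-only peaks 56.2% lay inside a gene and 7.22% over 100 kb from one, beside 38.1% and 14.6% of the shared peaks of that list. Of the ancestral-only peaks 34.1% lay inside a gene and 34.5% over 100 kb from one, beside 39.7% and 13.8% of the shared ones. These ancestral-only peaks over 100 kb away had a median pileup of 50, below the 58.6 that equals the lowest selected pileup after scaling. At gene starts 15% of the selected and 3.40% of the ancestral peaks had no partner, and over 100 kb from genes 21.3% and 35.3%. By chromosome, the selected-only share was highest on 20 (51.8%) and lowest on 13 (15.3%), and the ancestral-only share was highest on 18 (35.6%) and 4 (31.9%) and lowest on 19 (8.65%). On chromosome 4 there were 1323 ancestral-only and 873 selected-only peaks, the opposite of the genome as a whole.

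**Figure D5:**
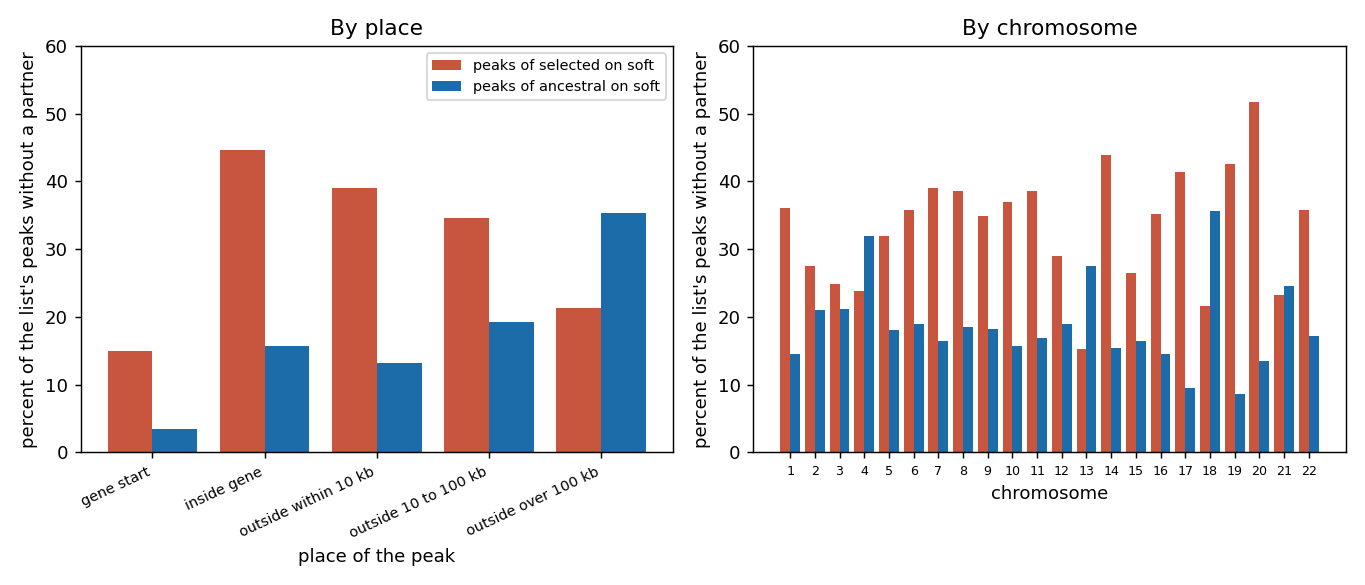
Percent of each list's peaks without a partner in the other list on soft gel, by place relative to genes (left) and by chromosome (right), red for selected and blue for ancestral cells. Over 100 kb from genes and on chromosomes 4, 13, 18 and 21 the blue bars are higher.

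At gene starts, 13181 of 19126 protein-coding genes had a peak in both lists, 1225 in the selected list alone (6.4%) and 236 in the ancestral list alone (1.23%). The selected-only starts of listed genes were weak, with pileups from 30 to 76, and included TWIST1 (47) and TWIST2 (43), transcription factor genes of EMT, both cadherin genes CDH2 (42) and CDH1 (32), TRPV4 (48) and MMP10 (49), a stromelysin gene. The CDH2 start is thus listed in selected cells alone, while the shared regions of this gene were mostly lower there. Ancestral-only starts included BACH2, a transcriptional repressor gene, with a pileup of 265, MMP7, the matrilysin gene, with 87, and IL1A, a cytokine gene, with 66.

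Among single peaks, the strongest ancestral-only one lay at the start of SUN1, which encodes an inner nuclear membrane protein of the LINC complex (chr7:816371-816712). This narrow peak had a pileup of 857 and was also listed in ancestral cells on stiff gel, and it had no partner in selected cells on either gel. The start itself was open in both populations, since its highest peak within 1 kb had a pileup of 456 in selected and 1202 in ancestral cells, or 4.90 and 5.95 times the scale. Next came a peak inside PNPLA8, a phospholipase gene, with 799, which the selected cells on stiff gel did have. SIK1, a salt-inducible kinase gene, had an ancestral-only start peak with 425, and a peak 195.5 kb from VEGFC, the lymphatic growth factor gene, had 425. Of the 10 strongest ancestral-only peaks 9 had a partner in selected cells on stiff gel. In the other direction the first peak, with a pileup of 389, was 102.7 kb away from SLCO3A1, an organic anion transporter gene (chr15:91749487-91751202). It was also listed in selected cells on stiff gel and not in ancestral ones. All 10 of the strongest selected-only peaks were listed in selected cells on stiff gel, and 3 in ancestral cells on stiff gel.

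Long genes held the most list-only peaks. Selected-only and ancestral-only peaks numbered 158 and 0 at TRAPPC9, a trafficking complex gene, 133 and 10 at PTPRN2, 118 and 8 at SHANK2, a synaptic scaffold gene, and 107 and 3 at CDH4. At GSE1, which encodes a coiled-coil protein, they numbered 89 and 3. In the 5 Mb around TRAPPC9 they numbered 440 and 26, around PTPRN2 336 and 48, and around SHANK2 601 and 52. Around CDH4 they numbered 573 and 42, and around GSE1 396 and 59. The surroundings of these genes thus ran the same way as the genes. The genes with the most ancestral-only peaks had 1 and 19 at TENM3, a teneurin adhesion gene, 0 and 16 at KCNIP4, a potassium channel-interacting protein gene, 6 and 16 at CELF2, an RNA-binding protein gene, 48 and 16 at KAZN, a cell junction gene, and 0 and 14 at HDAC9, a class II histone deacetylase gene. KAZN thus held more selected-only than ancestral-only peaks. The 5 Mb around TENM3 held 12 selected-only and 74 ancestral-only peaks, those around KCNIP4 9 and 53, those around CELF2 109 and 77, those around KAZN 692 and 31, and those around HDAC9 53 and 42. The surroundings of CELF2 and HDAC9 thus ran opposite to the genes.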

How the data were processed

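ATAC-seq was done on 16 samples in 4 groups of 4, and the deposited files hold 1 MACS table per group. The GRCh38 build is listed, with Bowtie2 2.4.5, MACS2 2.2.7.1, Trimmomatic 0.36, MultiQC 1.1 and FastQC 0.11.4 listed as tools, per the submitters' processing notes. The way libraries were pooled and the peak caller's settings are not stated in these sources. Per the file headers, each peak has a pileup signal at its summit, a fold enrichment ratio over background and a −log10 q-value as the authors' caller gave them. Pileups are deposited unscaled, and the depth per sample is not known, and each list's background pileup (13.5 selected, 16.3 ancestral), worked out from the fold enrichment, is the nearest measure of it.

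Peaks of both soft-gel lists were merged on an overlap of 1 bp, and the highest pileup of each list stood for a region. Peak numbers are skipped at 1311 places in the selected and 1107 in the ancestral list. A total of 952 shared regions reaching into such stretches were kept in counts and gene medians and were not named singly. The strength adjustment subtracts the running median over 2001 regions of like mean strength. Genes came from RefSeq (GRCh38.p14): of 19126 protein-coding autosomal genes, 15101 had an annotated start and both ends were used for 4025. Regions were assigned to the nearest gene within 100 kb. Counting intervals are exact Clopper-Pearson 95% intervals and cover counting error only.

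The members and the 25 gene lists were chosen with earlier results of these data known. 1 of the lists is not reported here. Named were, per direction, the 10 largest region ratios with −log10 q of at least 10 in both lists, anywhere, at gene starts and among strong regions, the 10 genes furthest from their 5 Mb surroundings, up to 3 members per gene list, the 10 list-only peaks of highest fold enrichment and the 5 genes with most list-only peaks. The naming among strong regions, the base composition, the motifs, the chromosome ends and the dense windows were added after the data were seen. The tools were scipy 1.17.1, pandas 2.3.3, matplotlib 3.10.9 and numpy 2.4.6 under python 3.11.15, and the steps were tested on simulated data.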

Additional observations from a re-analysis of the deposited data

How the results depend on the processing

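The median log2 ratio of shared regions, 0.16 as reported, was 0.153 with 50% overlap, 0.082 with a scale from regions shared on soft gel, −0.696 from the fold enrichment, 0.145 with 1 peak of each list, 0.049 at −log10 q of at least 10, 0.000 with the running median removed, 0.175 with the background subtracted, 0.124 without the dense windows and −0.076 in strong regions. The share at least 2-fold higher, 13.8%, was 1.68% from the fold enrichment, 5.47% at −log10 q of at least 10, 3.38% with the running median removed, 0.986% in strong regions and 26.7% at 1.5-fold. The share 2-fold lower, 1.73%, was 27.4%, 2.69% with the background subtracted and 7.48% at 1.5-fold. Gene starts minus regions over 100 kb from genes stood at −0.352 and became −0.321 with 1 peak of each list, −0.225 at that q, 0.119 with the running median removed, −0.260 with the background subtracted, −0.0091 without the dense windows, 0.128 in strong regions and −0.324 with a window of 3 kb. Selected-only peaks, 44811, numbered 10544 at that q in both lists and 5954 at that q in the own list. Ancestral-only peaks, 18409, numbered 11547 at that q in the own list and 9177 at a pileup that could have reached the selected list. Of the values of named regions, 43 moved beyond their counting interval and 322 did not. The alternatives on background, strong regions, skipped peaks, dense windows and the last limits on list-only peaks were chosen after seeing the data. The causes were not tested.

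No paired analysis was possible because each list pools its 4 samples and no result comes from a test. Leaving out each replicate was not run for the same reason. Medians over all regions thus follow the scale and the lowest listed pileup, and strong regions are less touched by the latter.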
